A study of Homo sapiens with 2 samples.

Results

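DEAD and DEAH box proteins are RNA helicases of the DDX and DHX gene families, named after a short amino acid motif in their ATPase core. The genes described here are those whose symbol in the platform annotation starts with DDX or DHX followed by a number, without antisense genes and pseudogenes. This gave 51 genes of the 19775 that had a probe set carrying a single gene symbol, with 121 probe sets between them. A gene with several probe sets is given by the one of highest mean log2 signal over the 2 arrays. Signal intensities were MAS5 values, a linear probe set summary. All 51 genes had an entry in the current RefSeq gene table. DDX18, DDX39B and DDX47 lacked a single-symbol probe set here and are not among them.

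The arrays were of the human colorectal carcinoma line HCT116, given siRNA by lipid transfection and harvested 2 days later. One sample received a control siRNA and the other received siRNAs against JMJD1A and JMJD1B, now KDM3A and KDM3B, histone H3 demethylases. The latter array, labelled JMJD1A/JMJD1B siRNA in the plots, is called the double-siRNA array below after its label. Each log2 ratio is the double-siRNA array minus the control array. Each group held 1 array, so no difference carries a replicate error or a test, and none can be told apart from a difference between these samples or hybridizations. The precision of all values is limited by this number of arrays, and off-target matches of the siRNAs were not analysed here.

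Across the series, KDM3B read 3031 on the control array and 496 on the double-siRNA array (log2 ratio -2.61), whereas KDM3A read 3884 and 3323 (-0.22). Both arrays had been scaled to the same trimmed mean. The 18 hybridization controls, bacterial and phage transcripts added before hybridization, nevertheless all stood higher on the double-siRNA array (median log2 ratio 0.61). With the arrays set level on these controls, here called the spike-in scale, each log2 ratio drops by 0.61, and the median of all measured genes goes from 0.04 to -0.57. Of 10 colon epithelial marker genes 9 were measured, with EPCAM at 13794 and 19809, while CDX1 lay under the signal filter. These markers had a median log2 ratio of 0.52, and 4 of the 9 were at least 2-fold higher, KRT19 (1.26), CDH1 (1.11), CEACAM5 (1.28) and CLDN4 (1.37), whereas CDX2 stood at -0.46. Markers of other cell types were measured for 2 of 6 fibroblast, 2 of 5 leukocyte and 1 of 5 endothelial genes, all dim (signals of 39.1 to 631) and each higher by 0.44 to 0.96 on the log2 scale. The leukocyte gene PTPRC (8.22 and 12.4) and the endothelial gene VWF (6.80 and 12.0) lay under the filter. The part of these markers in the results below was not tested.

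RNA helicases use ATP to unwind short RNA duplexes or to strip proteins from RNA. DEAD box proteins prise duplexes apart locally, while DEAH box proteins move along a strand, and both depend on cofactors that switch them on at the right place. They act at almost every step in the life of an RNA, from ribosome assembly in the nucleolus and splicing to export, translation and decay. Growing cells such as a carcinoma line express most of the family, whereas a few members are largely restricted to germ cells.

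Most helicase transcripts were lower on the double-siRNA array. A gene was counted as measured where its mean signal reached 50.4, the median over probe sets without the array controls, and 44 of the 51 members were. Of these 44, 34 (77.3%) had a log2 ratio below 0, against 47.9% of the 12561 measured genes. At least 2-fold lower were 11 members (25%, against 8.53% of all measured genes), and 1 member, DDX50, was at least 2-fold higher (2.27%, against 8.91%). The median log2 ratio was -0.57 for the members and 0.04 for all measured genes. At a 1.5-fold threshold 20 members were lower (background 19.5%) and 5 higher (background 21.7%). With probe sets of several symbols admitted, 9 of 47 members were at least 2-fold lower (background 8.52%). DDX5 and DDX19A were then short of 2-fold. On the spike-in scale, 28 of 44 would be at least 2-fold lower (background 27.7%), none would be at least 2-fold higher (background 2.15%), and 5 of the 10 members above 0 would turn negative. In bulk RNA, less of a transcript per cell and fewer cells that express it cannot be told apart.

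**Figure D1:**
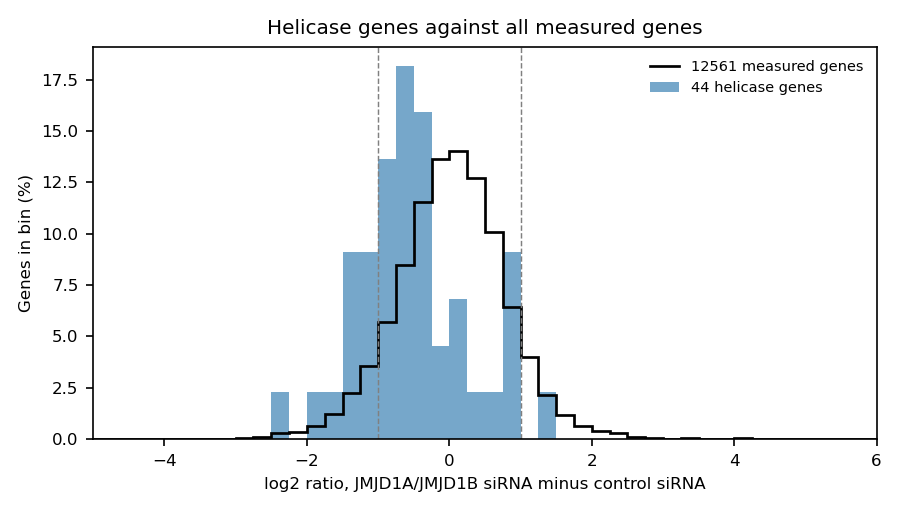
Percentage of genes in bins of 0.25 of the log2 ratio (double-siRNA array minus control array). Blue bars are the 44 measured helicase genes, the black outline is all 12561 measured genes, and dashed lines mark 2-fold. The helicase genes have a median of -0.57 against 0.04 for all genes.

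The scatter between probe sets of one gene was the only technical yardstick. It comes from the same 2 arrays and does not hold the variation between samples or hybridizations. A difference beyond it is therefore not shown to exceed that variation. From the 2 brightest probe sets of 6192 genes, the log2 ratio of one probe set had an SD of 0.53, and from those of 32 members an SD of 0.49. Among the members with several measured probe sets, all of these were below 0 for 24 of 32 genes (against 31.3% of the 6192), all above 0 for 3 (against 28.2%), and on both sides for 5 (against 40.5%). In 6 of the 32 every measured probe set was at least 2-fold lower (against 2.66%), namely DHX33, DHX37, DDX51, DDX42, DHX35 and DDX6. Of 10 members at least 2-fold lower with a second probe set, that one was below 0 in 9 and at least 2-fold lower in 6, against 84.6% and 43.1% of 540 such genes. When probe sets were averaged per gene, 9 members were at least 2-fold lower (background 7.84%) and none at least 2-fold higher (background 7.79%). That rule left out DDX56, DHX29 and DDX21, and added DDX46. The family did not divide by name. By the brightest probe set 7 of 29 measured DDX genes and 4 of 15 DHX genes were at least 2-fold lower (background 8.53%). Their medians were -0.57 and -0.48.

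**Figure D2:**
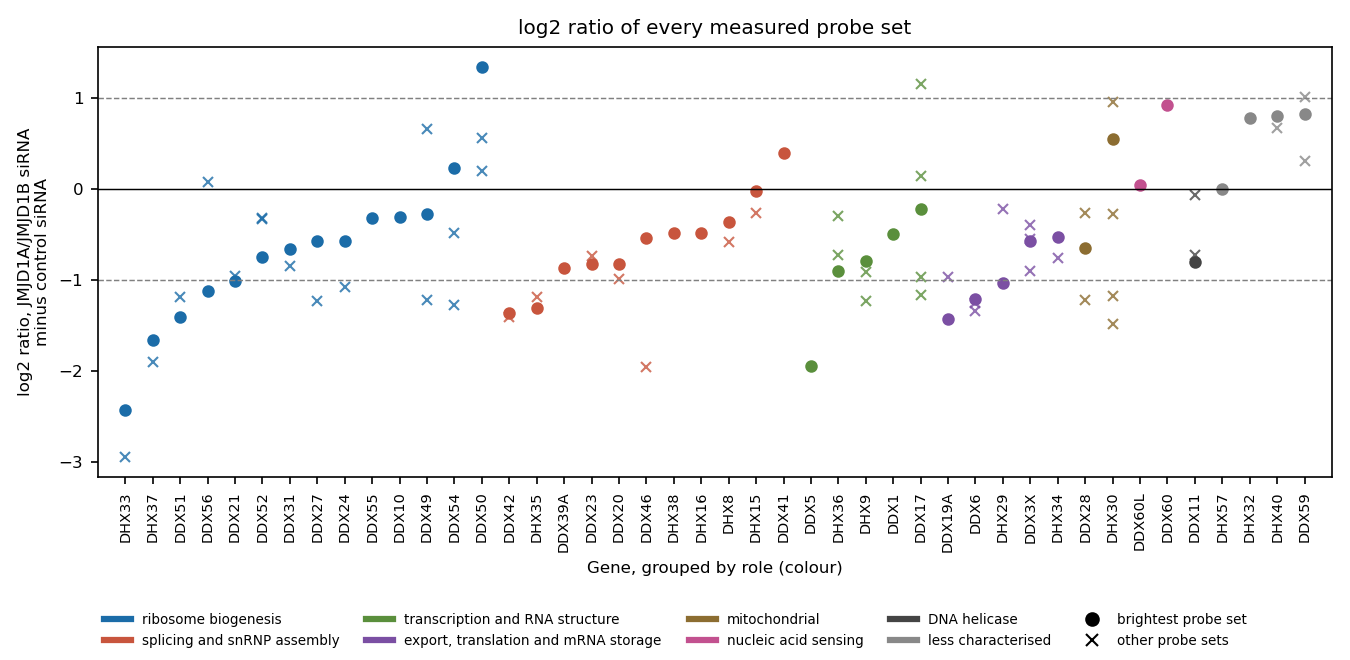
log2 ratio (double-siRNA array minus control array) of every measured probe set of the 44 helicase genes, grouped by role. Filled circles are the brightest probe set of each gene, crosses its other probe sets, and dashed lines mark 2-fold. DHX33 stands lowest with both probe sets under -2.4, and DDX17 and DHX30 have probe sets on both sides of 0.

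Helicases of ribosome biogenesis, which remodel the pre-ribosomal RNA and its small nucleolar RNAs, were lower in 12 of 14 measured cases. Of the 14, 5 were at least 2-fold lower and 1 at least 2-fold higher, with a median log2 ratio of -0.62. Among all measured genes 47.9% were below 0, 8.53% at least 2-fold lower and 8.91% at least 2-fold higher. With probe sets averaged per gene, 3 of the 14 passed 2-fold in the lower direction (background 7.84%) and none in the higher (background 7.79%). The median was then -0.64. DHX33, a nucleolar helicase that acts in ribosomal RNA transcription, read 2852 on the control array and 529 on the double-siRNA array, a 5.39-fold difference and the largest of any measured member. Its second probe set read 2261 and 292, with a log2 ratio of -2.95, so both differences were several times the probe-set SD. DHX37, which works in the small-subunit precursor and releases the U3 small nucleolar RNA, read 896 and 283 (log2 ratio -1.66). Its other probe set stood at -1.91. DDX51, needed for large-subunit maturation, read 623 and 235 (log2 ratio -1.40), with a dimmer probe set at -1.19. Each of these 3 genes was thus lower by every measured probe set.

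The remaining 2 nucleolar genes past 2-fold were closer to the threshold. DDX56, a nucleolar helicase of the large subunit, read 2740 and 1259 (log2 ratio -1.12), but a much dimmer probe set read 61.8 and 65.1 (log2 ratio 0.07), so its direction rests on the bright one. DDX21, which links ribosomal RNA transcription with processing, read 18568 and 9244, a 2.01-fold difference. Its second probe set read 13263 and 6849 (log2 ratio -0.95), almost the same difference, and the gene lies at the threshold. DDX50, the nucleolar paralogue of DDX21, went the other way. It read 2370 and 6041, 2.55-fold higher, with its dimmer probe sets at 0.57 and 0.20. On the spike-in scale DDX50 would stand at 0.74, higher but under 2-fold.

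DDX50 and DDX21 are neighbours on chromosome 10, with no other protein-coding gene between them in the RefSeq table, and both lie on the plus strand. Their promoter windows, 250 bases before to 50 after the RefSeq start in build GRCh38.p14, are shown because these adjacent paralogues had opposite log2 ratios. The windows of DHX37 and DDX5, both lower by their brightest single-symbol probe set, are shown for comparison. A brighter probe set that carries DDX5 with microRNA genes stood at only -0.39. Capitals mark CCGGAAG (the ETS core), CACGTG (the E-box) and TGACGTCA (the cyclic AMP response element), searched on both strands. The windows lie at chr10:68955920-68956219 (DDX21), chr10:68901065-68901364 (DDX50), chr12:124989082-124989381 on the minus strand (DHX37) and chr17:64506589-64506888 on the minus strand (DDX5).
DDX21: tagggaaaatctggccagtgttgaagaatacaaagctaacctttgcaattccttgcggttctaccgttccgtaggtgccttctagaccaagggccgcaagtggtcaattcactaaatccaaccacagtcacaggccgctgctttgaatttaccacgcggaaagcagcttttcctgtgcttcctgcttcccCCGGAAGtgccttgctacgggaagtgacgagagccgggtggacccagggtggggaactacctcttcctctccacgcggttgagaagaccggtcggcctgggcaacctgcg
DDX50: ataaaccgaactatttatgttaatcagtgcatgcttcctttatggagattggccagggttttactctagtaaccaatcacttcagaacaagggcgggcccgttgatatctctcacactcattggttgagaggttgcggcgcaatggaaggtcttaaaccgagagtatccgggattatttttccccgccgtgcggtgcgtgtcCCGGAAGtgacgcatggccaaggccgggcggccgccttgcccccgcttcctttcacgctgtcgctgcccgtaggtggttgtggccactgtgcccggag
DHX37: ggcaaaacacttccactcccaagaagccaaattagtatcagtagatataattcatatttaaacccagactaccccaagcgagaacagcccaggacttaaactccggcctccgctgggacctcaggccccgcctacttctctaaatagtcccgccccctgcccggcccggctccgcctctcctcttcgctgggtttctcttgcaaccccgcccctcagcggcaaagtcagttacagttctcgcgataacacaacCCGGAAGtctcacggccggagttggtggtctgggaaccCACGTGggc
DDX5: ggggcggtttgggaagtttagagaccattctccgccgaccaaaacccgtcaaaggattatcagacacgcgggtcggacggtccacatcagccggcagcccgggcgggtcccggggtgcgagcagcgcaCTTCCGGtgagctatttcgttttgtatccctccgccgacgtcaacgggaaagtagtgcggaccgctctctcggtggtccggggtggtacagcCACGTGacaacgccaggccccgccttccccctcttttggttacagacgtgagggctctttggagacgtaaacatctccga

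The CCGGAAG motif was present in all 4 of these windows, so it was shared by the lower DDX21 and the higher DDX50. DHX37 and DDX5 were the only lower members with a promoter entry that held both CCGGAAG and the E-box. The windows shown therefore do not stand for the lower members as a group. It was found in 19 of the 47 members with a promoter entry (40.4%), in 18.9% of the 10198 promoters of measured genes and in 10.7% of all 27305 promoters. The E-box was found in 8 of 47 (17.0%), against 10.3% and 7.43%. The cyclic AMP response element was found in 5 of 47 (10.6%), against 3.13% and 1.98%. Among the 10 members at least 2-fold lower with an entry, 6 held CCGGAAG, 3 the E-box (DDX5, DHX35 and DHX37) and 2 the cyclic AMP response element (DDX19A and DDX51). DHX33, the measured member with the largest difference, had no promoter entry and is missing from these counts. DDX5 and DDX19A count as lower here by single-symbol probe sets. Probe sets that carry their symbols beside others stood at -0.39 and -0.05. These matches describe letters in a window and were not set against binding data. No motif contains another, although CACGTG and TGACGTCA share the letters ACGT.

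The other ribosome biogenesis helicases differed by less than 2-fold. DDX52 (1681 and 1003, log2 ratio -0.75), DDX31 (777 and 490, -0.66), DDX27 (1420 and 954, -0.57) and DDX24 (5675 and 3834, -0.57) were lower by more than the probe-set SD by their brightest probe set. The other 2 probe sets of DDX52 stood at -0.33 and -0.31, within that SD, and the second of DDX31 at -0.85. In DDX27 and DDX24 a second probe set was past 2-fold, at -1.23 and -1.08. DDX55 (log2 ratio -0.32), DDX10 (-0.30) and DDX49 (-0.27) were within the SD, and the probe sets of DDX49 ran from -1.22 to 0.66. DDX54 read 461 and 541 (log2 ratio 0.23) by its brightest probe set, but its other probe sets stood at -0.48 and -1.28.

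**Figure D3:**
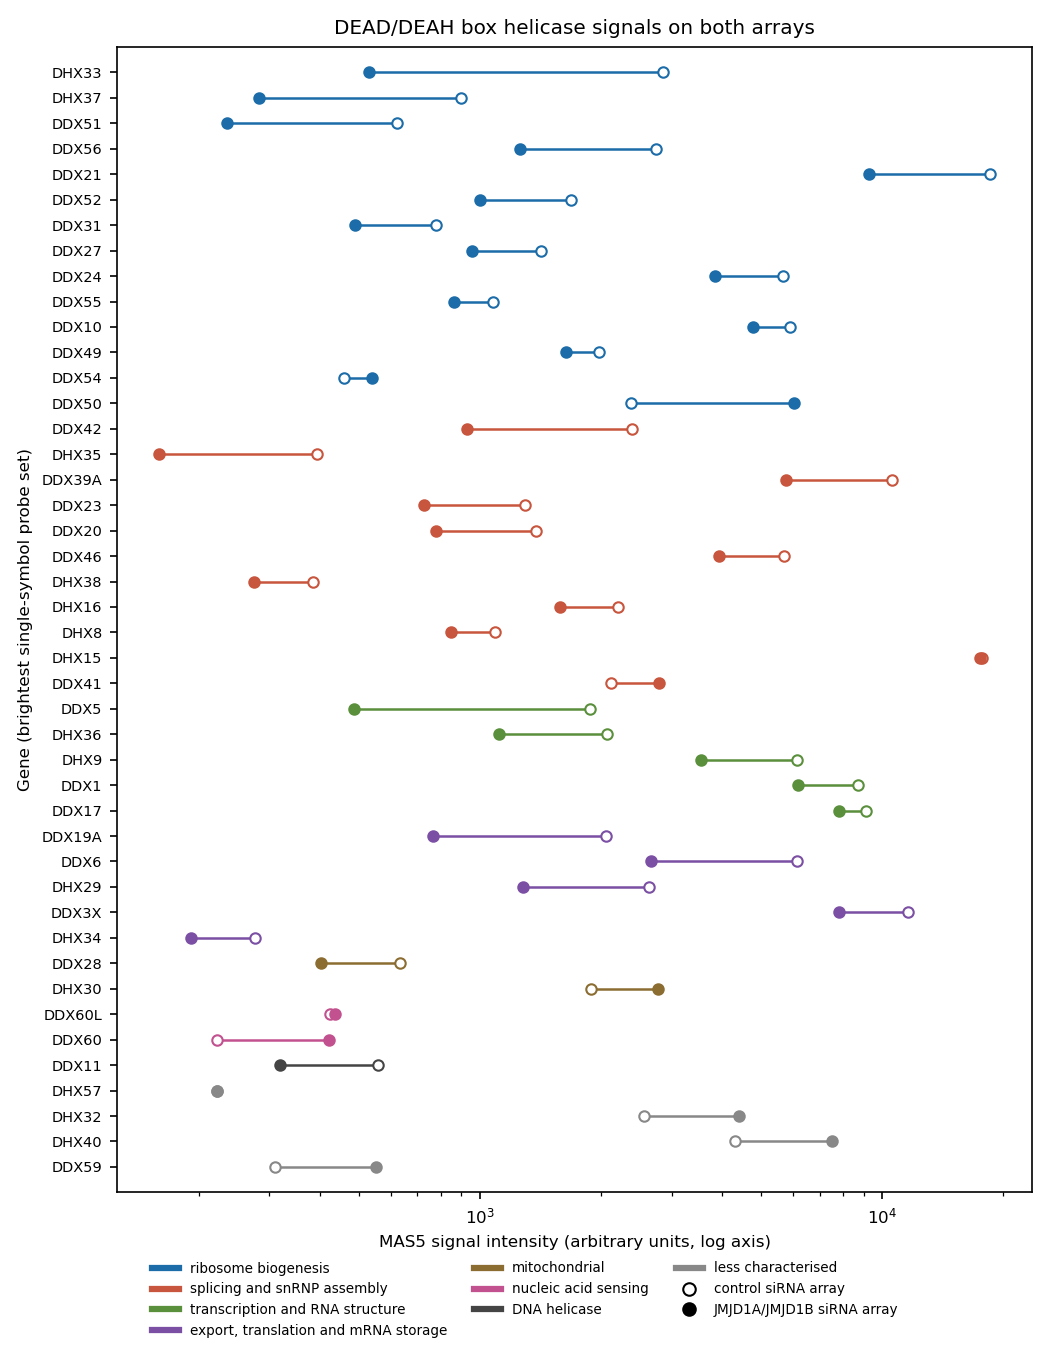
MAS5 signal intensity of the 44 measured helicase genes on a log axis, each by its brightest probe set. Open circles are the control siRNA array and filled circles the double-siRNA array (JMJD1A/JMJD1B siRNA in the legend), joined by a line coloured by role. Signals are to be compared between arrays and not between genes, and 34 of the 44 lines run to a lower filled circle.

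Splicing helicases drive the rearrangements of the spliceosome, and 10 of the 11 measured were lower (background 47.9%). Of the 11, 2 were at least 2-fold lower (background 8.53%), and the median log2 ratio was -0.54. DDX42, a protein associated with the SF3b complex of the U2 particle, read 2390 and 932, 2.57-fold lower, with a second probe set at -1.41. DHX35, a component of catalytic spliceosomes, read 394 and 159, 2.47-fold lower, with a second at -1.19. Both genes thus gave nearly the same difference by each probe set. DDX39A, a paralogue of the splicing and export factor DDX39B, read 10564 and 5772 (log2 ratio -0.87) and was the second nearest to 2-fold among the members short of it on the lower side, after DHX36.

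DDX23, a protein of the U5 particle, stood at -0.83, and DDX20 (Gemin3), which helps load Sm proteins onto small nuclear RNAs, also at -0.83. DDX46, the helicase that engages U2 at the branch site, read 5692 and 3924 (log2 ratio -0.54), but its second probe set read 714 and 183 (log2 ratio -1.96). The size of the DDX46 difference thus depended on the probe set, and its direction did not. The second probe sets of DDX23 (-0.74) and DDX20 (-0.99) were close to their first. The spliceosomal helicases DHX38 (-0.48), DHX16 (-0.48) and DHX8 (-0.36) were within the probe-set SD, although a second DHX8 probe set stood at -0.58, beyond it. DHX15, which takes spent spliceosomes apart, read 17723 and 17478 (log2 ratio -0.02), with its second probe set at -0.26. DDX41, a spliceosome-associated helicase also known as a myeloid tumour suppressor, was the only one of the 11 above 0 (2117 and 2796, log2 ratio 0.40), and it would stand at -0.21 on the spike-in scale.

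Of 5 measured helicases that act in transcription and on RNA structure, all had a log2 ratio below 0 (background 47.9%). Among them 1 was at least 2-fold lower (background 8.53%). DDX5 (p68), a transcriptional coregulator and partner of the microRNA processor Drosha, read 1882 and 488 by its only single-symbol probe set, 3.86-fold lower. A probe set that carries DDX5 together with the microRNA genes MIR5047 and MIR3064 read 24049 and 18399 (log2 ratio -0.39). The difference for DDX5 therefore depended on which of the 2 was read, and was under 2-fold by the brighter. DDX17 (p72), its closest paralogue, read 9111 and 7805 (log2 ratio -0.22), and its 5 probe sets ran from -1.16 to 1.16, the bright one lying between.

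DHX36, which unwinds G-quadruplexes, read 2076 and 1113 (log2 ratio -0.90), with its other probe sets at -0.30 and -0.73. DHX9 (RNA helicase A), which resolves long double-stranded RNA, read 6145 and 3546 (log2 ratio -0.79), with others at -1.23 and -0.91. Both were lower by all 3 measured probe sets. DDX1, a subunit of the tRNA ligase complex, read 8700 and 6190 (log2 ratio -0.49), within the probe-set SD.

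Helicases of export, translation and mRNA storage had a median log2 ratio of -1.04 over 5 measured genes by their brightest probe sets. Of these 5, 3 were at least 2-fold lower (background 8.53%). With probe sets averaged per gene the median was -0.65 and 2 were at least 2-fold lower (background 7.84%). DDX6, which holds mRNAs in processing bodies and promotes decapping, read 6153 and 2660, 2.31-fold lower. Its dimmer probe sets read 345 and 136, and 160 and 66.8, with log2 ratios of -1.34 and -1.26, so that all 3 agreed closely. DHX29, which helps ribosomes scan structured leaders, read 2630 and 1283 (log2 ratio -1.04), whereas its second probe set read 460 and 395 (log2 ratio -0.22). DDX3X, a translation initiation helicase, read 11607 and 7817 (log2 ratio -0.57), and its 4 measured probe sets ran from -0.90 to -0.40. DHX34, a helicase of nonsense-mediated decay, stood at -0.53.

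DDX19A and DDX19B, adjacent on chromosome 16, encode the export helicases that release mRNA at the nuclear pore. DDX19A read 2058 and 766, 2.69-fold lower, with a second probe set at -0.97. A probe set shared by both genes read 1523 and 1467 (log2 ratio -0.05), and the only DDX19B probe set was under the filter at 58.1 and 17.4. The lower signal of DDX19A was thus seen in its own probe sets and not in the shared one. DDX3Y, the Y-linked copy of DDX3X, lay under the filter in all 4 of its probe sets.

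The other roles held few measured genes. Among mitochondrial helicases DDX28, which acts in mitochondrial ribosome assembly, read 632 and 404 (log2 ratio -0.65), with probe sets from -1.22 to -0.26. DHX30, found in mitochondrial RNA granules, read 1888 and 2777 (log2 ratio 0.56) by its brightest probe set. Its next ones read 2611 and 933, and 1513 and 668, with log2 ratios of -1.48 and -1.18. The direction for DHX30 thus changed with the probe set, by more than the probe-set SD. DDX11, a DNA helicase of sister chromatid cohesion, read 557 and 319 (log2 ratio -0.80), with other probe sets at -0.06 and -0.72.

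DDX60, an interferon-induced antiviral factor, read 222 and 422 (log2 ratio 0.92), the highest value short of 2-fold among the measured members. Its neighbour and paralogue DDX60L on chromosome 4 read 423 and 436 (log2 ratio 0.04). DDX60 would stand at 0.31 and DDX60L at -0.57 on the spike-in scale. DHX58, a sensor of viral RNA, lay under the filter at 4.89 and 9.38.

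Of the 4 less characterised members none was below 0 (background 47.9%). DDX59, a gene mutated in an orofaciodigital syndrome, read 310 and 551 (log2 ratio 0.83), with other probe sets at 1.02 and 0.31. DHX40 read 4303 and 7490 (log2 ratio 0.80, second probe set 0.67) and DHX32 read 2554 and 4407 (log2 ratio 0.79). DHX57 was level at 222 and 223. On the spike-in scale DDX59, DHX40 and DHX32 would stay above 0, at 0.22, 0.19 and 0.18. The germ cell helicases DDX4, DDX25, DDX43 and DDX53 were all under the filter, with no signal above 34.4 on either array, and no fold is given for them.

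Helicases of the same superfamily with other symbols were closer to all genes by their brightest probe sets. Of 12 measured, 1 was at least 2-fold lower (background 8.53%) and 1 at least 2-fold higher (background 8.91%). Below 0 were 8 (background 47.9%), with a median log2 ratio of -0.23. With probe sets averaged per gene, 2 were at least 2-fold lower (background 7.84%), AQR (-1.18) and ASCC3 (-1.07). By that rule 1 was at least 2-fold higher (background 7.79%). DICER1, which cuts microRNA precursors, read 1145 and 558, 2.05-fold lower, and its 3 probe sets ran from -1.04 to -0.38. SNRNP200, the helicase that unwinds the U4/U6 duplex, read 87.01 and 260 by its only single-symbol probe set, 2.98-fold higher. EIF4A3, the helicase core of the exon junction complex, read 14300 and 13376 (log2 ratio -0.10). EIF4A2, a cap-binding complex helicase, lay under the filter by its only single-symbol probe set, and EIF4A1 was not analysed here.

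Cofactors that activate or hold these helicases had a median of -0.32 over 23 measured genes. Of the 23, 3 were at least 2-fold lower (background 8.53%), 1 at least 2-fold higher (background 8.91%) and 19 below 0 (background 47.9%). With probe sets averaged per gene, 4 were at least 2-fold lower (background 7.84%) and 0 at least 2-fold higher (background 7.79%). NUP214 (-1.84) and RBM8A (-1.31) were then among the lower ones, while GPATCH4 (-0.95) was not. GPATCH4, a nucleolar G-patch protein, read 2492 and 459, 5.43-fold lower, although its 5 probe sets ran from -2.44 to 0.81. NOM1, a nucleolar protein with a helicase-binding MIF4G domain, read 1395 and 347 (log2 ratio -2.01), with a second probe set at -0.68. EIF4G1, the scaffold that activates eIF4A, read 3904 and 1222, 3.19-fold lower, with a second at -1.08. SUGP1, a spliceosomal G-patch protein named after its values were seen, was 2.46-fold higher, with a second probe set at 0.67 and a mean of 0.98, short of 2-fold.

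The partners of DDX39B in the TREX complex, which couples splicing to export, held no gene past 2-fold among 9 measured. THOC6 was the farthest at -0.62. Among 7 measured partners of DDX20 in the SMN complex, 2 were at least 2-fold lower and 1 at least 2-fold higher. The backgrounds for both lists were 8.53% lower and 8.91% higher. GEMIN5, which recognises small nuclear RNAs, read 4156 and 1422, 2.92-fold lower. GEMIN4, which binds DDX20, read 2064 and 850, 2.43-fold lower, with its other probe set at -1.47. GEMIN8 read 202 and 501, 2.47-fold higher, and its 3 probe sets ran from 0.64 to 1.73. The other 4 were within 0.49 of 0.

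**Figure D4:**
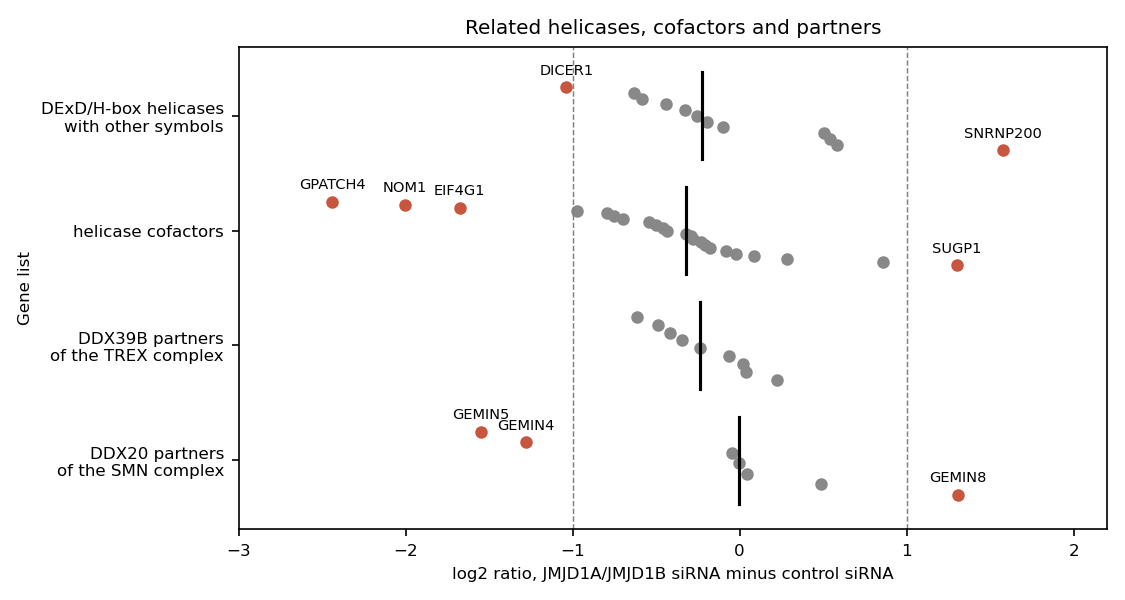
log2 ratio (double-siRNA array minus control array) of the measured genes in 4 lists related to the helicases. Each point is a gene by its brightest probe set, red points are changed at least 2-fold, black bars are list medians and dashed lines mark 2-fold. The medians are -0.23, -0.32, -0.24 and 0.00 from top to bottom.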

How the data were processed

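Total RNA of 2 HCT116 samples was hybridized to 1 array each, from 0.5 ug of RNA per the labels' protocols. The authors deposited linear signal intensity values for 54675 probe sets, computed by MAS5 according to the submitters' processing notes; its version and settings are not given in the sources used here. The deposited intensity values had a mean of 500.1 on both arrays after trimming 2% at each end.

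Genes were named from the platform annotation: 41091 probe sets carried 1 symbol, 1801 several and 11721 none. The log2 of each signal was used without pseudocount or rescaling. Genes with a mean signal under 50.4 were not counted. With 1 array per group no test was made; counts past 2-fold are read beside those over 12561 measured genes. The members and the lists were chosen with earlier results of these data known. Named were all members past 2-fold, the 3 nearest to it, the 5 brightest, paralogue pairs, the farthest of each role list without one past 2-fold, and in each partner list up to 3 past 2-fold or the farthest one; the other members are given so that each is accounted for. Promoter windows came from RefSeq (GRCh38.p14), matched by symbol for 47 of 51 members. The calculation was tested on simulated data. The planted changes were larger than most reported here and the noise was smaller than the probe-set SD. That test therefore does not bear on genes near 2-fold. Alternatives were 4 scalings, a pseudocount, 2 filters, 2 probe set rules and 2 fold thresholds. Admitting shared probe sets and reading the second brightest one were added after seeing the data. Python 3.11.15, numpy 2.4.6, pandas 2.3.3 and statsmodels 0.14.6 (loess, span 0.3) were used.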

Additional observations from a re-analysis of the deposited data

Results flagged for a closer look

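Probe sets that carry a family symbol beside others were outside the comparison. Of 7 such probe sets, 2 were higher on the double-siRNA array (JMJD1A and JMJD1B) than on the control array. The one carrying APOLD1 and DDX47, a ribosome biogenesis helicase, read 10182 and 14064 (log2 ratio 0.47). One of a pair carrying ATP6V1G2-DDX39B, SNORD84 and DDX39B, the splicing and export helicase, read 187 and 235 (log2 ratio 0.33), while the brighter of that pair read 4042 and 2339 (log2 ratio -0.79). With the arrays level on the hybridization controls these would stand at -0.14, -0.29 and -1.40. The hybridization controls themselves were higher on the double-siRNA array, with a median log2 ratio of 0.61 (range 0.40 to 0.71, 18 of 18 probe sets), which was seen in data that the gene comparison leaves out.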

How the results depend on the processing

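The counts of 11 members at least 2-fold lower and 1 higher, and the median of -0.57, were each within 1.5 times of the reported count or within the probe-set SD with the arrays level on their medians, after quantile normalization, after loess, with a pseudocount of 16 and with a mean signal of at least 100. After quantile normalization and after loess, DHX29 fell short of 2-fold (-0.97 and -0.96) and DDX39A passed it (-1.04 and -1.06). DICER1, outside the family, also fell short (-0.93 and -0.94). With the arrays level on the hybridization controls the counts were 28 lower (27.7% of all measured genes) and 0 higher (2.15%), and the median -1.18. Without a filter 2 of 51 members were at least 2-fold higher (16.1% of all genes), the added one being DDX53 with signals of 3.84 and 23.2. The count of higher members was 0 by the mean of probe sets (7.79% of all measured genes). By the second brightest probe set it was 2 of 32 (8.88% of all such genes), and the lower count was 13 (11.6%). A 1.5-fold threshold gave 20 lower (19.5% of all measured genes) and 5 higher (21.7%). A 3-fold threshold gave 3 lower, DHX33, DDX5 and DHX37 (2.26% of all measured genes), and 0 higher (2.28%). DDX5 is among these by its single-symbol probe set only. Without _x_at and _s_at probe sets 10 of 30 were lower (10.6% of all measured genes), and the 1 higher gene was DDX59 and not DDX50. Admitting probe sets with several symbols gave 9 of 47 lower (8.52% of all measured genes), since DDX5 stood at -0.39 and DDX19A at -0.05. By the second brightest probe set 4 members changed sign, DDX56 to 0.0743, DDX17 to 1.16, DHX30 to -1.48 and DDX54 to -0.48. Like DDX56, the members DHX29 at -0.22, DDX19A at -0.97 and DDX21 at -0.95 were no longer at least 2-fold lower. No paired analysis was possible because each group held 1 array. Signal over background limits the 7 members under the filter, for which no fold is given.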
